A study of Mus musculus with 20 samples.

Results

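Liver tumors raised by Aldafermin together with MYC were compared with liver tumors raised by a Trp53 guide together with MYC. The comparison used 10 of the 20 bulk RNA-seq libraries of the series, 5 per group, and took every library of both groups. All 10 tumors came from C57Bl6J WT female mice whose hepatocytes were transfected in vivo by hydrodynamic injection of plasmids at 6 to 8 weeks of age. Both groups received pT3-EF1a-MYC, a transposon that expresses human MYC from the EF1a promoter, with the Sleeping Beauty transposase SB100X. The Aldafermin + MYC mice also received pSBbi-RN-Aldafermin, a transposon that encodes an engineered analog of the human hormone FGF19. In its place the sgTrp53 + MYC mice received LentiCRISPRv2-sgTrp53, a plasmid that carries Cas9 and a guide against the mouse Trp53 gene. Each library was made from 1 snap-frozen tumor, and the time of harvest of the sgTrp53 + MYC tumors was not given in the sources used here. The treatment field of the sgTrp53 + MYC samples reads None, so their group was taken from their titles. The other 10 libraries were 5 FGF19 + MYC tumors and 5 control livers. The livers are titled Non treated, whereas the study's text describes the control livers as injected with an RFP plasmid. These 10 libraries entered the fit for the spread between libraries and are given below only as levels.

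p53, the product of Trp53, is a transcription factor that is held at low levels by the ubiquitin ligase MDM2 and is stabilised by DNA damage or by excess oncogene activity. Its targets halt the cell cycle (Cdkn1a, which encodes p21), start apoptosis (Bax, Eda2r), repair DNA (Xpc) and restrain p53 itself (Mdm2, Ccng1). FGF19 is a hormone of the ileum that acts on hepatocytes through FGFR4 and its co-receptor beta-klotho, activates ERK signalling and represses Cyp7a1, which encodes the rate-limiting enzyme of bile acid synthesis. The mouse counterpart of FGF19 is Fgf15. The human FGF19, Aldafermin and MYC transgenes are not genes of the mouse annotation, so their transcripts were not measured and whether reads of human MYC aligned to mouse Myc was not tested.

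The data were raw read counts per gene, given here as CPM, a gene's count scaled to its library's gene counts and TMM factor, with the mean ± SD of 5 tumors where groups are summarised. Gene counts summed to between 21604250 and 36119799 in the Aldafermin + MYC libraries and between 54042455 and 66354724 in the sgTrp53 + MYC libraries. The 2 groups were deposited in separate count tables, so that condition, sequencing and counting cannot be told apart. Reads that did not align made up 20.6 ± 3.33% of the Aldafermin + MYC reads and 5.87 ± 0.57% of the sgTrp53 + MYC reads (p = 0.00794 in an exact two-sided permutation test over samples, the lowest value possible with 5 against 5, and 0.00952 after adjustment over 6 read classes). Reads that fell on more than 1 gene were 4.81 ± 0.62% against 12.9 ± 1.56% (exact permutation p = 0.00794, adjusted p = 0.00952). The libraries were made with a stranded kit, but the strand setting of the counting is not given in the sources used here, so reads of overlapping genes on opposite strands cannot be told apart. Among genes named below without this value, the share of exon length that lies over the other strand was 55.8% for Gadd45a, 32.7% for Bhlhe41, 29% for Cdkn1c, 23% for Dusp6, 20.8% for Fbl, 18.9% for Sox4, 17.7% for Krt19, 16.6% for Gls2 and 15.3% for Bop1. Across genes the fold change rose with GC content, with a Spearman rho of 0.316 over 13847 genes that share these libraries, and the median log2 fold change ran from -0.32 in the tenth of genes lowest in GC to 0.22 in the highest. The part of these technical differences in any result was not tested beyond the alternatives named below. On a scale where 0 is the mean of a library's own group and 1 that of the other group, over the genes called without that library, Aldafermin + MYC replicate 4 stood at 0.396 and sgTrp53 + MYC replicate 4 at 0.4. The other 8 libraries lay between -0.07 and 0.27, and key results are also given without the pair numbered 4. This pair was chosen for its place near the other group in these same data. Leaving it out can therefore widen differences, and calls made only without it are not independent support. Hepatocyte genes were expressed in all 10 tumors: albumin (Alb) ranged from 4040 to 14300 CPM against 731 to 5430 CPM, and Hnf4a, the hepatocyte transcription factor, from 367 to 553 against 269 to 591 CPM. Both were higher in the control livers, where Alb averaged 161520 ± 11126 CPM and Hnf4a 1072.6 ± 25.8 CPM.

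Trp53, the gene targeted by the guide (GRCm39 chromosome 11, 69469669 to 69482701, plus strand), was lower in every sgTrp53 + MYC tumor. Trp53 stood at 176, 159, 129, 135 and 90.8 CPM in the Aldafermin + MYC tumors and at 18.7, 79.9, 35.4, 51.02 and 48.8 CPM in the sgTrp53 + MYC tumors, in the order of replicates 1 to 5 that is kept throughout. All 5 sgTrp53 + MYC values lay under the lowest Aldafermin + MYC value, with replicate 1 at 18.7 CPM and replicate 2 at 79.9 CPM. The means were 138 ± 32.5 CPM and 46.8 ± 22.6 CPM, and Trp53 stood at 139.6 ± 17.9 CPM in the FGF19 + MYC tumors and 32.8 ± 2.98 CPM in the livers. Aldafermin + MYC exceeded sgTrp53 + MYC by 1.56 ± 0.26 (SE) on the log2 scale (edgeR quasi-likelihood test, Benjamini-Hochberg adjusted p = 0.000656). Over the 10 libraries an exact permutation (two-sided) gave p = 0.00794, the lowest value possible. Counts per gene do not show the sequence at the guide site, and the remaining Trp53 reads were not resolved into edited and intact transcripts. Of the exon length of Trp53 5.68% lies over Wrap53 and Gm57392 on the other strand.

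Targets of p53 were called higher more often than lower in the Aldafermin + MYC tumors. Of 51 listed target genes, 50 passed the filter on low counts, 21 were called higher (42%), 5 were called lower (10%) and 24 were not called, where a call is an adjusted p under 0.05. Among all 14333 tested genes 10.2% were called higher, 7.53% lower and 17.7% in either direction. These shares are the base for each count of list members called below. The median log2 fold change of the 50 targets was 0.51, against -0.01 over all tested genes. Whether each listed gene, Ddb2 included, responds to p53 in mouse hepatocytes was not tested. The count of higher targets was 16 without the pair numbered 4, 22 with a correction for GC content and length, and 12 in a fit of the 10 compared libraries alone.

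The cell cycle and feedback targets held 9 members called higher and 2 called lower of 16 tested. Cdkn1a, the inhibitor of cyclin-dependent kinases through which p53 stops the cycle, was higher in every library. Cdkn1a stood at 86.4, 47.3, 138, 76.99 and 107 CPM in the Aldafermin + MYC tumors and at 18.96, 18.8, 22.5, 23.02 and 32.8 CPM in the sgTrp53 + MYC tumors. The groups did not overlap, and the lowest Aldafermin + MYC tumor, replicate 2, was above the highest sgTrp53 + MYC tumor, replicate 5 (log2 fold change 1.97 ± 0.47, adjusted p = 0.006802). Ccng1 stood at 81.2, 60.5, 112, 115 and 82.5 CPM in the Aldafermin + MYC tumors and at 42.1, 41.01, 34.7, 26.3 and 22.5 CPM in the sgTrp53 + MYC tumors. This gene encodes cyclin G1, a feedback regulator of p53, and its groups did not overlap either (log2 fold change 1.44 ± 0.21, adjusted p = 0.000186). Zmat3, a zinc finger RNA-binding protein, averaged 44.1 ± 18.98 CPM against 15.7 ± 8.57 CPM (log2 fold change 1.49 ± 0.34, adjusted p = 0.00596). Btg2, an antiproliferative co-regulator of transcription, averaged 28.5 ± 14.7 CPM against 11.6 ± 3.14 CPM (log2 fold change 1.29 ± 0.28, adjusted p = 0.003502). The polo-like kinase gene Plk2 was higher as well (log2 fold change 1.24 ± 0.32, adjusted p = 0.0125). So were the autophagy regulator Trp53inp1 (log2 fold change 1.27 ± 0.34, adjusted p = 0.0144) and the stress sensor Sesn2, also a target of ATF4 (log2 fold change 1.85 ± 0.38, adjusted p = 0.00243). In the 10 compared libraries alone Zmat3, Plk2 and Trp53inp1 were not called (adjusted p = 0.0579, 0.101 and 0.0581). Without the pair numbered 4 Trp53inp1 was not called either (adjusted p = 0.0646).

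Mdm2, which encodes the ligase that degrades p53, differed little. Mdm2 stood at 39.1, 44.4, 56.4, 36.4 and 51.97 CPM in the Aldafermin + MYC tumors and at 35.1, 39.3, 27.8, 33.97 and 33.5 CPM in the sgTrp53 + MYC tumors. Its groups overlapped, and its call (log2 fold change 0.43 ± 0.14, adjusted p = 0.04601) disappeared without Aldafermin + MYC replicate 2, 3 or 5 or sgTrp53 + MYC replicate 1, 3, 4 or 5, with adjusted p up to 0.145. Sesn1, a paralog of Sesn2, went the other way (log2 fold change -0.43 ± 0.14, adjusted p = 0.03796) with a call that was lost without Aldafermin + MYC replicate 1, 2, 3 or 4 or sgTrp53 + MYC replicate 1, 3 or 4 (adjusted p up to 0.0973). Mxd4, an antagonist of MYC, was lower (log2 fold change -0.74 ± 0.22, adjusted p = 0.0291), and that call was lost without Aldafermin + MYC replicate 1 or 2 or sgTrp53 + MYC replicate 5 (adjusted p up to 0.0891). Plk3 was higher (log2 fold change 1.23 ± 0.37, adjusted p = 0.0266), a call lost without Aldafermin + MYC replicate 3 or sgTrp53 + MYC replicate 3 or 5 (adjusted p up to 0.0771). Values of the targets not called included 14.4 ± 3.33 against 17.3 ± 2.44 CPM for the p53 phosphatase Ppm1d, and a log2 fold change of 0.49 ± 0.35 for the stress gene Gadd45a (adjusted p = 0.364) and of 0.81 ± 0.29 for Gtse1 (adjusted p = 0.0574).

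**Figure D1:**
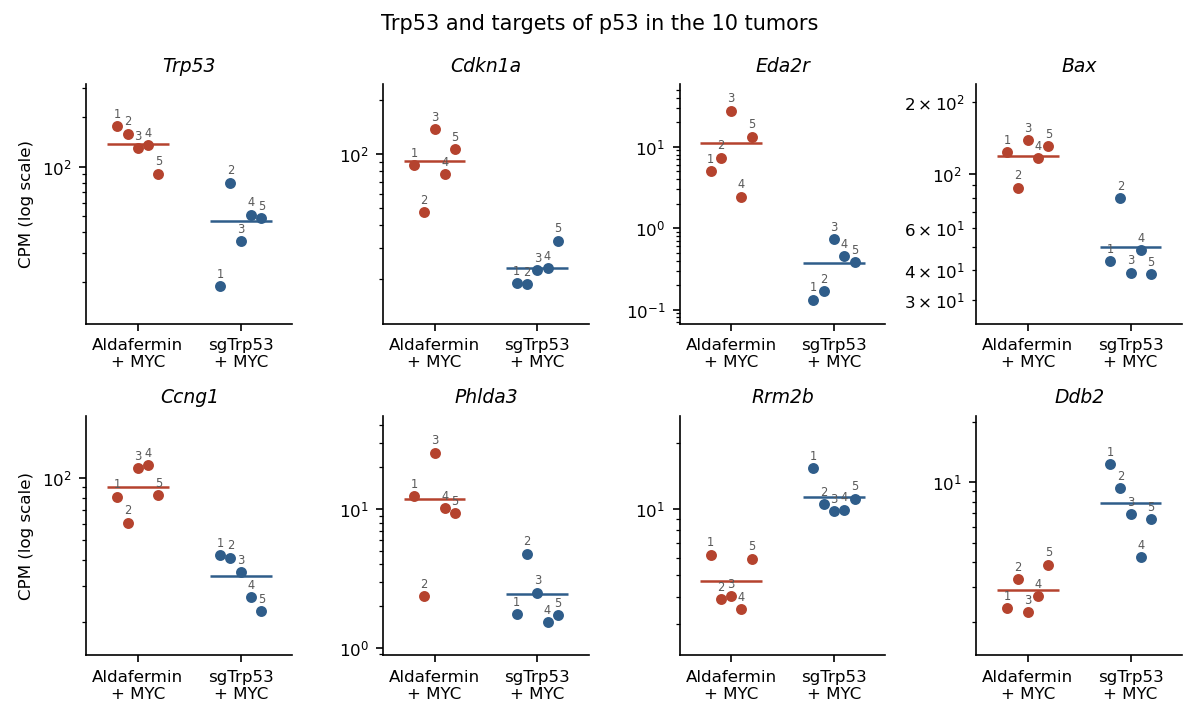
Level of Trp53 and of 7 listed p53 targets in each tumor, as CPM on a log axis. Points are libraries with their replicate number, lines are group means of 5, and for Trp53, Cdkn1a, Eda2r, Bax and Ccng1 the Aldafermin + MYC points all lie above the sgTrp53 + MYC points while for Rrm2b and Ddb2 they all lie below.

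Apoptosis and death receptor targets held 7 members called higher and 0 called lower of 15 tested, and 7 of the 15 had an unadjusted p under 0.05. Eda2r, a receptor of the TNF receptor superfamily, showed the largest difference among the 50 tested targets. Eda2r stood at 5.05, 7.34, 27.8, 2.42 and 13.3 CPM in the Aldafermin + MYC tumors and at 0.132, 0.168, 0.727, 0.449 and 0.384 CPM in the sgTrp53 + MYC tumors. Its lowest Aldafermin + MYC value, in replicate 4, was above its highest sgTrp53 + MYC value, in replicate 3 (log2 fold change 4.88 ± 0.64, adjusted p = 8.39e-05). Bax stood at 123, 87.9, 138, 117 and 131 CPM in the Aldafermin + MYC tumors and at 43.5, 79.5, 39.05, 48.3 and 38.4 CPM in the sgTrp53 + MYC tumors. This gene encodes a pore-forming effector of mitochondrial apoptosis, and the sgTrp53 + MYC tumor nearest to the other group was replicate 2 (log2 fold change 1.26 ± 0.19, adjusted p = 0.000309). Aen, an apoptosis-enhancing nuclease, averaged 49.7 ± 7.08 CPM against 25.3 ± 5.99 CPM without overlap (log2 fold change 0.97 ± 0.15, adjusted p = 0.000376). Bid, a BH3-only protein, was called higher (log2 fold change 0.54 ± 0.14, adjusted p = 0.0127) and shares 34.5% of its exon length with genes on the other strand. Its call was lost in the 10 compared libraries alone (adjusted p = 0.0715) and with no filter on low counts (adjusted p = 0.0979). Fas, the death receptor, was called higher (log2 fold change 1.11 ± 0.31, adjusted p = 0.01805). The call was lost without Aldafermin + MYC replicate 5 (adjusted p = 0.0724) and without the pair numbered 4 (adjusted p = 0.0648). It was lost too when the 10 compared libraries were fitted alone (adjusted p = 0.126). Pidd1 and Trp53i11 were called with adjusted p of 0.0435 and 0.0475, and each call was lost in 5 of the 10 fits that left out 1 library (adjusted p up to 0.122 and 0.248).

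The BH3-only genes Bbc3 (PUMA) and Pmaip1 (NOXA), which p53 induces in many cell types, were not called. Bbc3 stood at 42.7, 19.4, 25.8, 26.5 and 20.2 CPM in the Aldafermin + MYC tumors and at 21.9, 25.6, 24.5, 22.6 and 28.6 CPM in the sgTrp53 + MYC tumors. Its groups overlapped, with the highest value in Aldafermin + MYC replicate 1 (log2 fold change 0.13 ± 0.23, adjusted p = 0.744). Pmaip1 averaged 7.02 ± 2.59 CPM against 5.32 ± 2.62 CPM, again with overlap (log2 fold change 0.40 ± 0.38, adjusted p = 0.503). Apaf1, the apoptosome scaffold, gave a log2 fold change of 0.27 ± 0.28 (adjusted p = 0.562), and Perp, a desmosomal effector, -0.01 ± 0.23 (adjusted p = 0.983).

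Repair, metabolic and secreted targets divided, with 5 called higher and 3 lower of 19 tested. The 3 lower genes act in DNA repair and nucleotide supply. Rrm2b stood at 6.19, 3.895, 4.002, 3.5 and 5.95 CPM in the Aldafermin + MYC tumors and at 15.4, 10.5, 9.79, 9.93 and 11.2 CPM in the sgTrp53 + MYC tumors. It encodes the p53-inducible subunit of ribonucleotide reductase, and every Aldafermin + MYC value lay below every sgTrp53 + MYC value (log2 fold change -1.27 ± 0.20, adjusted p = 0.000472). Ddb2 stood at 2.36, 3.27, 2.24, 2.69 and 3.87 CPM in the Aldafermin + MYC tumors and at 12.3, 9.33, 6.93, 4.22 and 6.55 CPM in the sgTrp53 + MYC tumors. This damage recognition factor of nucleotide excision repair was lower without overlap (log2 fold change -1.45 ± 0.28, adjusted p = 0.00197), though 46.3% of its exon length lies over Acp2 and A330069E16Rik on the other strand. Xpc, its partner in lesion recognition, was lower (log2 fold change -0.60 ± 0.19, adjusted p = 0.0354), and its call was lost in 6 of the 10 fits that left out 1 library, namely without Aldafermin + MYC replicate 1 or 3 or sgTrp53 + MYC replicate 2, 3, 4 or 5 (adjusted p up to 0.0936).

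Among the higher genes of this class, Phlda3 encodes an inhibitor of AKT. Phlda3 stood at 12.4, 2.36, 25.4, 10.1 and 9.32 CPM in the Aldafermin + MYC tumors and at 1.75, 4.77, 2.503, 1.54 and 1.73 CPM in the sgTrp53 + MYC tumors. Its Aldafermin + MYC replicate 2 lay under sgTrp53 + MYC replicates 2 and 3, and the other Aldafermin + MYC values were above all sgTrp53 + MYC values (log2 fold change 2.28 ± 0.45, adjusted p = 0.00197). Ak1, an adenylate kinase, averaged 1.99 ± 1.195 CPM against 0.453 ± 0.191 CPM (log2 fold change 2.13 ± 0.40, adjusted p = 0.00153). Psrc1, a spindle-associated protein, averaged 61.2 ± 16.8 CPM against 26.9 ± 7.03 CPM (log2 fold change 1.19 ± 0.24, adjusted p = 0.00232). Pltp, which transfers phospholipids between lipoproteins (log2 fold change 1.42 ± 0.29, adjusted p = 0.00249), and Gdf15, a secreted stress cytokine (log2 fold change 1.41 ± 0.36, adjusted p = 0.0107), were also higher, and 21.2% and 17.3% of their exon length is shared with the other strand. Tigar and Gls2, metabolic targets, gave -0.16 ± 0.17 and 0.29 ± 0.20 on the log2 scale (adjusted p = 0.557 and 0.325).

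**Figure D2:**
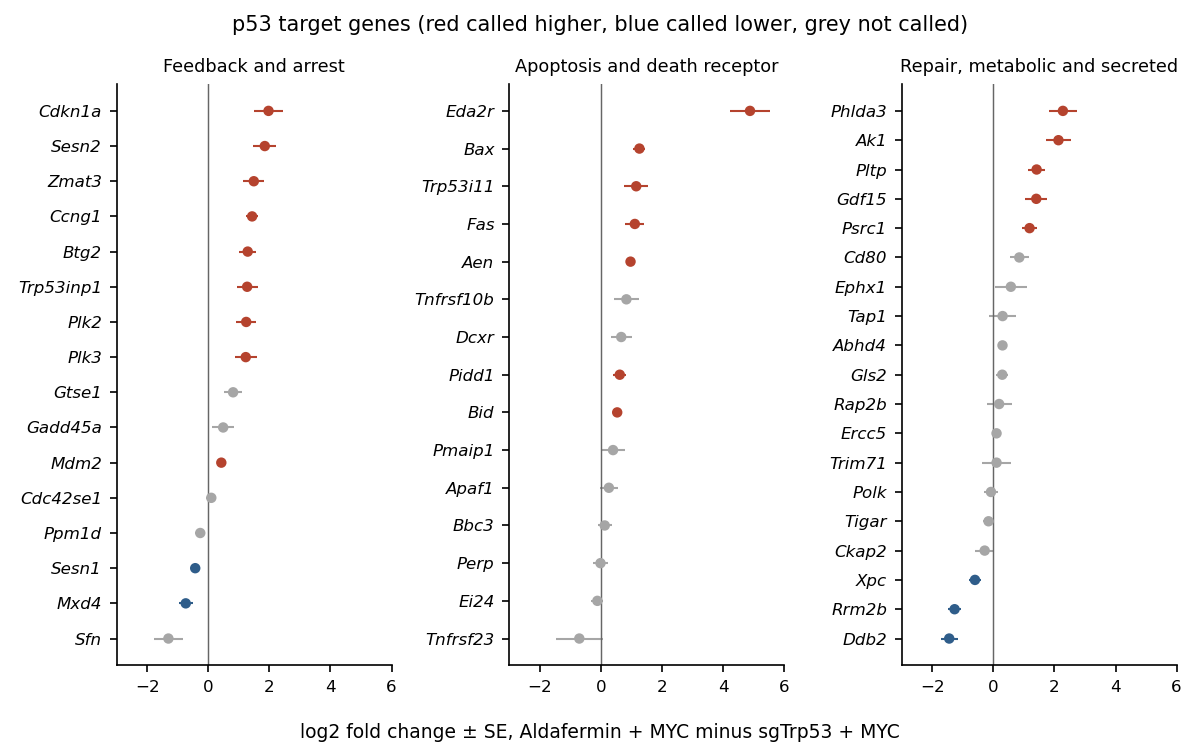
Log2 fold change ± SE of the 50 tested p53 targets, Aldafermin + MYC minus sgTrp53 + MYC, in 3 classes, from the edgeR fit. Points to the right of 0 were higher in Aldafermin + MYC tumors. Red marks the 21 genes called higher, blue the 5 called lower and grey the 24 not called.

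p53 binds a pair of 10-base half-sites, and the 250 bases before each annotated start were searched on both strands for exact matches to the p53 half-site (promoters from RefSeq, GRCm38.p6). Of 51 p53 targets, 42 had a promoter in the table and 11 held a match, while 7.13% of all 32851 starts and 8.2% of 27025 genes did. A match was present in 5 of the 19 matched genes called higher, in 1 of the 2 called lower and in 5 of the 20 not called. Ddb2, Gls2, Perp, Pmaip1, Rrm2b, Tnfrsf10b, Trp53inp1, Xpc and Zmat3 were not in the table. The matches of the 6 called genes are shown, each with its distance to the start whose 250 bases hold it. Cdkn1a, Aen and Sesn1 have 2 annotated starts each, and 1 of the 2 holds a match. Every window given here except that of Bax overlaps an annotated exon. The half-site is in capitals, 5′ to 3′ on the gene's strand, with 10 bases on either side. Cdkn1a holds another match at chr17:29090896-29090925.
Cdkn1a, chr17:29090918-29090947, plus strand, 51 bases before the start: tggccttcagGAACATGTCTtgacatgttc
Ccng1, chr11:40755452-40755481, minus strand, 185 bases before the start: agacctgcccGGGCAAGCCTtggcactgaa
Mdm2, chr10:117710925-117710954, minus strand, 186 bases before the start: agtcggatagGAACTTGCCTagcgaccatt
Aen, chr7:78895927-78895956, plus strand, 121 bases before the start: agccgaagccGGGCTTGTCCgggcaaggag
Bax, chr7:45467080-45467109, minus strand, 201 bases before the start: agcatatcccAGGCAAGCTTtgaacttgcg
Sesn1, chr10:41887256-41887285, plus strand, 173 bases before the start: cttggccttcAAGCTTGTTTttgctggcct

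A match is a description of letters and not a bound site. Cdkn1a, Ccng1, Aen and Bax, whose windows hold a half-site, were higher without overlap between groups. Mdm2 and Sesn1, which hold one too, had calls that were lost when single libraries were left out. Eda2r, Btg2, Phlda3 and Ak1, which were higher by 1.29 to 4.88 on the log2 scale, had no match in the bases searched, from which nothing follows about binding elsewhere.

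Across the transcriptome 2534 of 14333 tested genes were called, 1455 of them higher and 1079 lower in Aldafermin + MYC tumors. DESeq2 called 1603 higher and 1807 lower, and a fit of the 10 compared libraries alone called 566 higher and 510 lower, so that both the balance of directions and the count depended on the method. Of the called genes 1241 differed by at least 1 on the log2 scale, 835 higher and 406 lower. The libraries of the 2 groups did not overlap for 1281 called genes, 50.6% of the calls, and for 1397 of all 14333 tested genes. A call and a lack of overlap rest on the same difference. Genes whose span overlaps no other annotated gene numbered 3224, and a fit of these alone called 333 higher and 259 lower. Processed pseudogenes stood apart with a median of 0.69 on the log2 scale over 734 of them and 34.6% called higher, and the part of multiply aligned reads in this was not tested.

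The genes named next had the largest called differences among genes with at least 10 CPM in the higher group and no overlap between groups. Predicted genes, pseudogenes and Rik clones, recognised by symbol, were left out of this ranking. Cited1, a transcriptional co-regulator that binds CBP/p300 and SMAD proteins, was almost absent from the sgTrp53 + MYC tumors (GRCm39 chromosome X, 101290985 to 101295803, minus strand). Cited1 stood at 25.9, 9.95, 27.3, 7.88 and 9.85 CPM in the Aldafermin + MYC tumors and at 0, 0.21, 0.415, 0.395 and 0.261 CPM in the sgTrp53 + MYC tumors. Each Aldafermin + MYC value was far above each sgTrp53 + MYC value (log2 fold change 5.95 ± 0.75, adjusted p = 5.35e-05), and Cited1 averaged 2.17 ± 1.52 CPM in the FGF19 + MYC tumors and 0.0357 ± 0.050996 CPM in the livers. Sall4 stood at 28.3, 39.1, 29.4, 25.8 and 9.204 CPM in the Aldafermin + MYC tumors and at 0.066, 0.126, 1.18, 7.94 and 0.414 CPM in the sgTrp53 + MYC tumors. This zinc finger factor of the fetal liver was lowest among Aldafermin + MYC tumors in replicate 5 and highest among sgTrp53 + MYC tumors in replicate 4 (log2 fold change 3.75 ± 0.86, adjusted p = 0.00565), and without sgTrp53 + MYC replicate 4 the log2 fold change was 5.84. Car7 stood at 22.4, 34.7, 39.97, 19.3 and 22.8 CPM in the Aldafermin + MYC tumors and at 0.511, 6.996, 1.33, 1.95 and 1.41 CPM in the sgTrp53 + MYC tumors. It encodes a cytosolic carbonic anhydrase (log2 fold change 3.51 ± 0.51, adjusted p = 0.000205).

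The 8 largest increases in this ranking included a pair of aquaporin genes. Aqp3, a channel for water and glycerol, averaged 13.6 ± 6.09 CPM against 1.26 ± 1.09 CPM (log2 fold change 3.42 ± 0.68, adjusted p = 0.00206). Aqp4, a water channel, averaged 60.7 ± 32.9 CPM against 6.34 ± 8.44 CPM (log2 fold change 3.26 ± 0.81, adjusted p = 0.00932). Fabp2, the intestinal fatty acid binding protein, averaged 67.5 ± 49.2 CPM against 6.52 ± 7.45 CPM (log2 fold change 3.37 ± 0.85, adjusted p = 0.0106), with 22.9% of its exon length shared with the other strand. Hkdc1 stood at 47.5, 66.4, 65.6, 29.4 and 40.8 CPM in the Aldafermin + MYC tumors and at 0.774, 2.099, 1.51, 19.3 and 1.27 CPM in the sgTrp53 + MYC tumors. This hexokinase family member was low in 4 sgTrp53 + MYC tumors and at 19.3 CPM in replicate 4 (log2 fold change 3.32 ± 0.68, adjusted p = 0.00256), without which the log2 fold change was 5.13. When the 10 compared libraries were fitted alone Sall4, Fabp2 and Aqp4 were not called (adjusted p = 0.062, 0.0757 and 0.0756).

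Ckm, the muscle-type creatine kinase, showed the largest decrease in the same ranking (GRCm39 chromosome 7, 19138701 to 19157965, plus strand). Ckm stood at 0.461, 0.025, 0.08, 0.115 and 0.14 CPM in the Aldafermin + MYC tumors and at 549, 278, 55.5, 16.7 and 455 CPM in the sgTrp53 + MYC tumors. The sgTrp53 + MYC values ran from replicate 4 to replicate 1 over a wide range, all far above the Aldafermin + MYC values (log2 fold change -10.62 ± 0.95, adjusted p = 2.00e-06). Without any 1 sgTrp53 + MYC library Ckm had too few libraries at 1 CPM to be tested, and without any 1 Aldafermin + MYC library it stayed called. Of its exon length 26% is shared with the other strand. Of 21 other skeletal muscle genes, 5 (Myh2, Myh4, Pvalb, Myod1 and Mb) had 0 counts in all 10 tumors and 16, those 5 included, stayed under 1 CPM in all of them. Their sum ranged from 15.8 to 32.7 CPM in Aldafermin + MYC and from 14.6 to 44.5 CPM in sgTrp53 + MYC tumors. Gatm, which makes the precursor of creatine, was lower too. Gatm stood at 9.86, 4.56, 13.6, 6.58 and 21.9 CPM in the Aldafermin + MYC tumors and at 209, 176, 9.38, 58.5 and 142 CPM in the sgTrp53 + MYC tumors. sgTrp53 + MYC replicate 3 fell within the range of the Aldafermin + MYC tumors (log2 fold change -3.40 ± 0.56, adjusted p = 0.000568), and Ckm and Gatm were the only 2 called of 5 tested creatine genes.

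Atp6v0a4, a subunit of the proton pump V-ATPase found in acid-secreting epithelia, was lower as well. Atp6v0a4 stood at 0.34, 0.695, 0, 1.35 and 0.673 CPM in the Aldafermin + MYC tumors and at 35.5, 39.3, 22.8, 5.26 and 41.1 CPM in the sgTrp53 + MYC tumors. The sgTrp53 + MYC tumor nearest to the Aldafermin + MYC tumors was replicate 4 (log2 fold change -5.58 ± 0.78, adjusted p = 0.000142). Atp6v1b1, another subunit of this restricted kind, averaged 1.29 ± 0.444 CPM against 6.01 ± 2.48 CPM (log2 fold change -2.22 ± 0.40, adjusted p = 0.00104). The ubiquitous subunit gene Atp6v0c was higher (log2 fold change 0.67 ± 0.12, adjusted p = 0.00104), and of 22 tested V-ATPase genes 4 were called higher and 2 lower.

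The remaining large decreases fell on genes of unlike function. Unc13b, which primes secretory vesicles, averaged 1.49 ± 0.702 CPM against 26.5 ± 6.98 CPM and kept a narrow spread (log2 fold change -4.15 ± 0.39, adjusted p = 3.71e-06). Sult2a1 stood at 0.024, 0.273, 0, 0.231 and 3.42 CPM in the Aldafermin + MYC tumors and at 24.2, 32.4, 28.4, 4.58 and 14.98 CPM in the sgTrp53 + MYC tumors. This sulfotransferase of bile acids and steroids was highest among Aldafermin + MYC tumors in replicate 5 (log2 fold change -4.72 ± 1.22, adjusted p = 0.0116), without which the log2 fold change was -7.40. Ldb3, a sarcomeric Z-disc protein, averaged 0.383 ± 0.183 CPM against 15.3 ± 19.2 CPM (log2 fold change -5.31 ± 0.86, adjusted p = 0.000472). Chad, a cartilage matrix protein, averaged 0.418 ± 0.389 CPM against 15.5 ± 6.37 CPM (log2 fold change -5.18 ± 0.70, adjusted p = 0.0002497). Fry, a microtubule-binding scaffold (log2 fold change -4.10 ± 0.51, adjusted p = 4.90e-05), and Npnt, a basement membrane ligand of integrins (log2 fold change -4.02 ± 0.67, adjusted p = 0.0005997), were lower too.

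**Figure D3:**
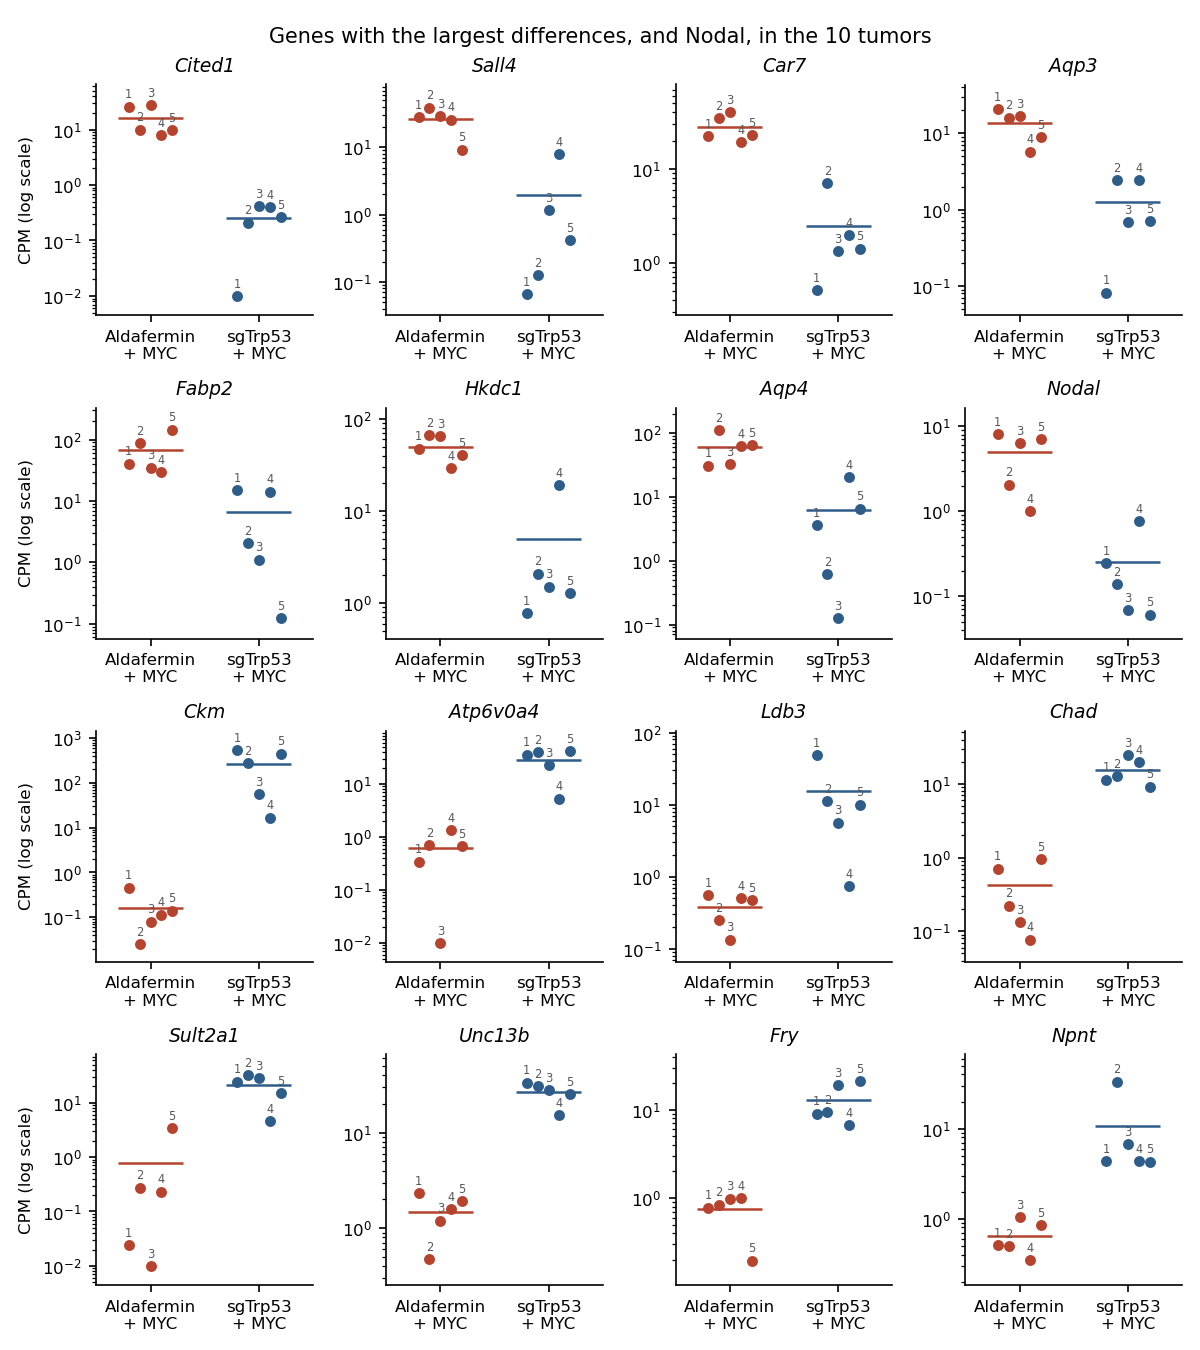
Level in each tumor, as CPM on a log axis, of the genes with the largest called differences under the naming rule and of Nodal. Points are libraries with their replicate number, lines are group means of 5, and a value of 0 is drawn at 0.01 CPM. In every panel except that of Nodal, chosen for its pathway, the absence of overlap was part of the rule, and Nodal's Aldafermin + MYC points also lie above its sgTrp53 + MYC points.

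The hormone given to the Aldafermin + MYC tumors signals through FGF receptors, whose genes were modestly different. Of 9 tested genes for FGF receptors, beta-klotho, the adaptor Frs2 and endocrine ligands, 3 were called higher and 1 lower. The shares over all tested genes were 10.2% and 7.53%. Fgfr4 stood at 31.2, 24.9, 30.1, 24.7 and 21.9 CPM in the Aldafermin + MYC tumors and at 14.6, 16.9, 17.1, 22.5 and 24.2 CPM in the sgTrp53 + MYC tumors. This gene, for the hepatocyte receptor of FGF19, gave log2 fold change 0.48 ± 0.15, adjusted p = 0.0385, and the call was lost without Aldafermin + MYC replicate 1 or 3 or sgTrp53 + MYC replicate 1, 2 or 3 (adjusted p up to 0.094). Klb stood at 136, 88.3, 68.7, 66.3 and 91.5 CPM in the Aldafermin + MYC tumors and at 57.7, 50.7, 82.6, 86.4 and 95.1 CPM in the sgTrp53 + MYC tumors. The beta-klotho groups overlapped (log2 fold change 0.28 ± 0.21, adjusted p = 0.394). Fgfr2 differed more. Fgfr2 stood at 9.89, 30.9, 25.2, 20.9 and 15.9 CPM in the Aldafermin + MYC tumors and at 2.47, 1.06, 2.05, 11.2 and 0.522 CPM in the sgTrp53 + MYC tumors. Only sgTrp53 + MYC replicate 4 reached the Aldafermin + MYC range (log2 fold change 2.57 ± 0.58, adjusted p = 0.00541). Fgfr1 was called (log2 fold change 1.31 ± 0.42, adjusted p = 0.0373) but was lost in 6 of the 10 fits that left out 1 library, namely without Aldafermin + MYC replicate 3 or 4 or sgTrp53 + MYC replicate 1, 2, 4 or 5 (adjusted p up to 0.169). Frs2, which links FGF receptors to ERK, was lower (log2 fold change -0.73 ± 0.19, adjusted p = 0.0118). Of these calls none was made when the 10 compared libraries were fitted alone. Fgf15, the mouse hormone, was at or under 0.253 CPM in all 10 tumors and was not tested.

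Genes that respond to ERK gave few calls. Of 23 tested feedback and immediate response genes, 1 was called higher and 1 lower, beside 10.2% and 7.53% of all tested genes. Dusp6 stood at 15.6, 28.03, 35.5, 30.3 and 16.2 CPM in the Aldafermin + MYC tumors and at 5.49, 82.3, 11.98, 16.4 and 7.92 CPM in the sgTrp53 + MYC tumors. Dusp6, the ERK phosphatase, was highest in sgTrp53 + MYC replicate 2, and the remaining sgTrp53 + MYC tumors lay between 5.49 and 16.4 CPM (log2 fold change 0.02 ± 0.58, adjusted p = 0.987). The feedback inhibitor Spry4 showed the same tumor at 25.7 CPM against 1.4 to 4.52 CPM in the other 4 (log2 fold change 0.12 ± 0.65, adjusted p = 0.923). Without sgTrp53 + MYC replicate 2, and likewise without replicate 4, 4 genes of the list were called higher. Spred1, an inhibitor of RAS activation, was called higher in each of the 21 alternatives that tested it. Spred1 stood at 26.8, 38.5, 33.7, 34.3 and 26.9 CPM in the Aldafermin + MYC tumors and at 4.96, 18.1, 6.45, 10.1 and 3.33 CPM in the sgTrp53 + MYC tumors. Its groups were apart (log2 fold change 1.90 ± 0.32, adjusted p = 0.000683). Spry3 was lower (log2 fold change -2.20 ± 0.63, adjusted p = 0.02098), a call lost without Aldafermin + MYC replicate 3 or sgTrp53 + MYC replicate 5 (adjusted p up to 0.0564).

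Cyp7a1, which FGF19 represses in normal liver, was low in 4 of 5 Aldafermin + MYC tumors and high in 4 of 5 sgTrp53 + MYC tumors (GRCm39 chromosome 4, 6265612 to 6275633, minus strand). Cyp7a1 stood at 0.024, 0.174, 0, 28.8 and 0 CPM in the Aldafermin + MYC tumors and at 92.6, 37.2, 72.8, 4.53 and 61.3 CPM in the sgTrp53 + MYC tumors. Aldafermin + MYC replicate 4 stood at 28.8 CPM while the other 4 were at or under 0.174 CPM, and sgTrp53 + MYC replicate 4 was the lowest of its group. With all tumors the gene was not called (log2 fold change -3.24 ± 1.35, adjusted p = 0.103), and without Aldafermin + MYC replicate 4 it was (log2 fold change -9.94, adjusted p = 9.13e-05). Cyp7a1 averaged 1.13 ± 1.33 CPM in the FGF19 + MYC tumors and 293 ± 169 CPM in the livers. Nr0b2 encodes SHP, a nuclear receptor that represses Cyp7a1. Nr0b2 stood at 33.9, 18.8, 14.6, 7.19 and 45.5 CPM in the Aldafermin + MYC tumors and at 2.31, 1.79, 1.64, 26.99 and 0.783 CPM in the sgTrp53 + MYC tumors. sgTrp53 + MYC replicate 4 alone reached the Aldafermin + MYC range, and the gene was not called (log2 fold change 1.84 ± 0.88, adjusted p = 0.153) but was without that library (log2 fold change 3.88, adjusted p = 0.00216).

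Of 18 tested bile acid synthesis enzymes 0 were called higher and 1 lower, Baat, which conjugates bile acids to amino acids. Baat stood at 3.21, 3.67, 3.31, 24.04 and 4.29 CPM in the Aldafermin + MYC tumors and at 68.6, 20.8, 37.5, 7.96 and 28.2 CPM in the sgTrp53 + MYC tumors. Aldafermin + MYC replicate 4 was the one of its group within the sgTrp53 + MYC range (log2 fold change -2.09 ± 0.62, adjusted p = 0.0258). This call was lost without Aldafermin + MYC replicate 1, 2 or 3 or sgTrp53 + MYC replicate 1 (adjusted p up to 0.0679). The libraries numbered 4 were singled out after their values were seen, which limits the counts given without them. Without Aldafermin + MYC replicate 4, 5 of the enzymes were called lower, and without the pair numbered 4 the count was 6: Cyp7a1, Baat, Cyp8b1 (log2 fold change -4.39, adjusted p = 0.000991), Cyp7b1 (log2 fold change -4.09, adjusted p = 0.0106), Slc27a5 (log2 fold change -2.71, adjusted p = 0.0166) and Akr1c6 (log2 fold change -3.95, adjusted p = 0.0303). Of 17 bile acid and organic anion transporters 1 was called, Abcb4, the phospholipid exporter of bile (log2 fold change 0.82 ± 0.24, adjusted p = 0.0248), and the call was lost without Aldafermin + MYC replicate 5 or sgTrp53 + MYC replicate 3 or 5 (adjusted p up to 0.075). Among nuclear receptors of this system 3 were called lower. Nr1h4 stood at 28.6, 33.4, 18.4, 46.03 and 33.3 CPM in the Aldafermin + MYC tumors and at 71.8, 55.8, 67.8, 47.5 and 66.6 CPM in the sgTrp53 + MYC tumors. It encodes FXR, the bile acid receptor, and its groups were apart (log2 fold change -0.95 ± 0.19, adjusted p = 0.00229). Nr5a2, the activator LRH-1, was lower (log2 fold change -0.55 ± 0.15, adjusted p = 0.0167), although not without Aldafermin + MYC replicate 3 or sgTrp53 + MYC replicate 3 (adjusted p up to 0.0508). Nr1i3, the xenobiotic receptor CAR, was lower (log2 fold change -1.46 ± 0.48, adjusted p = 0.0406) but lost its call in 6 of the 10 fits that left out 1 library, namely without Aldafermin + MYC replicate 1, 2 or 3 or sgTrp53 + MYC replicate 1, 2 or 5 (adjusted p up to 0.104), and 75.4% of its exon length lies over Tomm40l on the other strand.

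**Figure D4:**
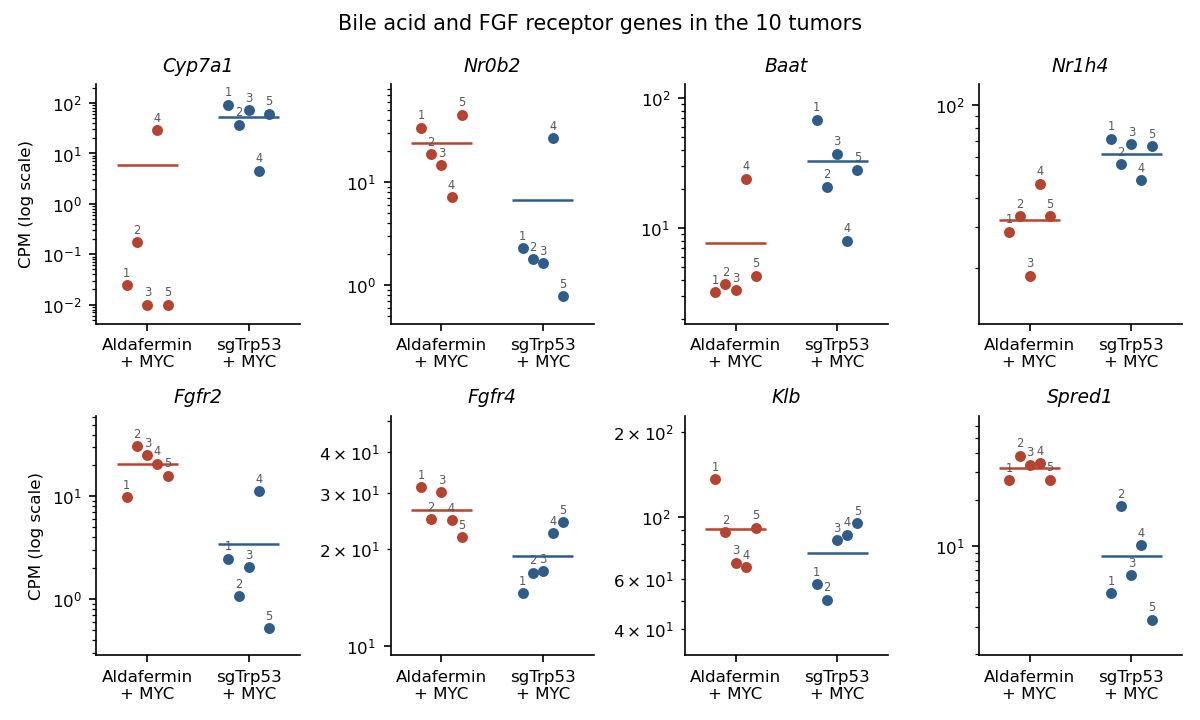
Level of bile acid, FGF receptor and ERK feedback genes in each tumor, as CPM on a log axis with 0 drawn at 0.01 CPM. Points are libraries with their replicate number and lines are group means of 5. The points numbered 4 depart from their groups in the Cyp7a1, Nr0b2 and Baat panels, while the Nr1h4 and Spred1 groups do not overlap.

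Hepatocyte products differed in both directions. Of 31 tested secreted proteins and enzymes 7 were called higher and 1 lower, beside 10.2% and 7.53% of all tested genes. Trf stood at 3578, 4582, 5516, 6263 and 4911 CPM in the Aldafermin + MYC tumors and at 2227, 1666, 1486, 2961 and 797 CPM in the sgTrp53 + MYC tumors. Transferrin, the iron carrier, was higher in every Aldafermin + MYC tumor (log2 fold change 1.44 ± 0.28, adjusted p = 0.00197). Apob, the scaffold of liver lipoproteins, averaged 1169 ± 101 CPM against 594 ± 164 CPM (log2 fold change 0.98 ± 0.18, adjusted p = 0.00132), and Apoa1, that of high-density lipoprotein, was higher too (log2 fold change 1.59 ± 0.34, adjusted p = 0.00315). Cps1, the first enzyme of the urea cycle, went the other way. Cps1 stood at 400.3, 711, 342, 711 and 745 CPM in the Aldafermin + MYC tumors and at 1434, 1906, 1034, 1289 and 1315 CPM in the sgTrp53 + MYC tumors. Every Aldafermin + MYC value was below every sgTrp53 + MYC value (log2 fold change -1.26 ± 0.24, adjusted p = 0.00178). Alb was called higher (log2 fold change 1.56 ± 0.50, adjusted p = 0.0366), yet its call was lost in 6 of the 10 fits that left out 1 library, namely without Aldafermin + MYC replicate 4 or 5 or sgTrp53 + MYC replicate 2, 3, 4 or 5 (adjusted p up to 0.111). Hnf4a was not called (log2 fold change 0.10 ± 0.20, adjusted p = 0.764). Of 19 hepatocyte transcription factors and nuclear receptors the 3 called were the nuclear receptors described above, and 1 was called without Aldafermin + MYC replicate 3. In bulk tumors, fewer cells of a type and less RNA per cell cannot be told apart.

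Of 31 tested fetal liver genes 7 were called higher and 3 lower in Aldafermin + MYC tumors, beside 10.2% and 7.53% of all tested genes. In fits that left out 1 library the higher count ran from 5 to 10 and the lower from 1 to 6. In the 10 compared libraries fitted alone 3 were called higher and 1 lower. Afp stood at 2306, 3051, 3817, 2484 and 4816 CPM in the Aldafermin + MYC tumors and at 445, 413, 295, 1267 and 355 CPM in the sgTrp53 + MYC tumors. Alpha-fetoprotein, the main fetal serum protein, was higher without overlap (log2 fold change 2.57 ± 0.63, adjusted p = 0.00885). Golm1 stood at 130.2, 149.9, 141, 118 and 129 CPM in the Aldafermin + MYC tumors and at 26.2, 55.4, 33.5, 101 and 33.4 CPM in the sgTrp53 + MYC tumors. This Golgi membrane protein of hepatocellular carcinoma gave log2 fold change 1.42 ± 0.27, adjusted p = 0.00181, with 17.6% of its exon length shared with the other strand. Gpc3, a cell surface proteoglycan, was not called (log2 fold change 0.89 ± 0.36, adjusted p = 0.0934). sgTrp53 + MYC replicate 4 stood at 397 CPM against 75.2 to 163 CPM in its group, and without the pair numbered 4 it was higher (log2 fold change 1.5, adjusted p = 0.00181). The imprinted growth genes H19 (log2 fold change 0.45 ± 0.81, adjusted p = 0.744) and Igf2 (log2 fold change 0.47 ± 0.55, adjusted p = 0.592) were not called. Sox4, a progenitor transcription factor, was lower, at 3.69 ± 1.99 CPM against 14.996 ± 7.83 CPM (log2 fold change -2.02 ± 0.40, adjusted p = 0.00204).

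Of 15 tested genes of the IGF axis 1 was called higher and 1 lower, beside 10.2% and 7.53% of all tested genes. Igfbp2 stood at 15.5, 7.62, 8.75, 53.03 and 9.34 CPM in the Aldafermin + MYC tumors and at 467, 328, 231, 59.1 and 195 CPM in the sgTrp53 + MYC tumors. This IGF binding protein was lower in Aldafermin + MYC tumors, with replicate 4 of either group closest to the other (log2 fold change -3.77 ± 0.75, adjusted p = 0.00219). Igfbp3 was called higher (log2 fold change 1.05 ± 0.32, adjusted p = 0.0291). The call was lost without Aldafermin + MYC replicate 3 or sgTrp53 + MYC replicate 2, 4 or 5 (adjusted p up to 0.106). It was also lost in the 10 compared libraries alone (adjusted p = 0.0754), with the replicate block (0.0516) and with no filter on low counts (0.0593). The other 2 lower fetal genes, Krt19 and Hmga2, rest on 1 tumor. Krt19 stood at 0.073, 0, 0.4, 0.5 and 0.982 CPM in the Aldafermin + MYC tumors and at 0.609, 191, 2.33, 0.095 and 2.27 CPM in the sgTrp53 + MYC tumors. sgTrp53 + MYC replicate 2 carried nearly all of it (log2 fold change -6.67 ± 1.59, adjusted p = 0.00712), and without that library the gene was not called (log2 fold change -1.78, adjusted p = 0.151). Hmga2 was at 56.7 CPM and the biliary keratin Krt7 at 80.9 CPM in the same tumor, and each stayed under 1 CPM in the other 9. Neither could be tested without it.

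Genes of the TGF-beta, BMP and activin pathways were called higher in 10 and lower in 3 of 50 tested. Over all tested genes 10.2% were called higher and 7.53% lower. Cited1, above, is one of the 10 pathway genes called higher. Nodal stood at 8.09, 2.06, 6.38, 1 and 7.099 CPM in the Aldafermin + MYC tumors and at 0.247, 0.14, 0.069, 0.762 and 0.061 CPM in the sgTrp53 + MYC tumors. Nodal, an embryonic ligand of activin receptors, was higher in every Aldafermin + MYC tumor (log2 fold change 4.25 ± 0.70, adjusted p = 0.000575). Fstl3 stood at 14.2, 7.64, 9.29, 4.23 and 10.02 CPM in the Aldafermin + MYC tumors and at 99.4, 42.4, 28.9, 32.6 and 51.3 CPM in the sgTrp53 + MYC tumors. This secreted inhibitor of activin was lower without overlap (log2 fold change -2.49 ± 0.34, adjusted p = 0.000112), and 47.1% of its exon length lies over Prss57 on the other strand. The other genes called higher were Tgfbr2, Skil, Gdf11, Acvrl1, Bmp7, Fst, Tgfb3 and Bambi, and the other 2 called lower were Smad3 and Ltbp1. The count of higher genes was 5 without Aldafermin + MYC replicate 3, 6 without Aldafermin + MYC replicate 5 and 2 when the 10 compared libraries were fitted alone.

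Of 25 tested genes of epithelial-mesenchymal transition 4 were called higher and 1 lower, and of 20 collagen genes 3 higher and 0 lower, beside 10.2% higher and 7.53% lower over all tested genes. When the 10 compared libraries were fitted alone 2 transition genes and 0 collagen genes were called higher. Glipr2 stood at 137, 102, 109.8, 99.6 and 158 CPM in the Aldafermin + MYC tumors and at 4.2, 10.1, 16.7, 52.1 and 14.1 CPM in the sgTrp53 + MYC tumors. This Golgi-associated gene was higher without overlap (log2 fold change 2.64 ± 0.45, adjusted p = 0.000756). Fn1 stood at 242, 363, 601, 522 and 241 CPM in the Aldafermin + MYC tumors and at 107, 128, 143, 223 and 104 CPM in the sgTrp53 + MYC tumors. Fibronectin, made by hepatocytes as well as fibroblasts, was higher without overlap (log2 fold change 1.48 ± 0.35, adjusted p = 0.00651). Col6a3 stood at 25.8, 20.4, 118, 52.3 and 14.1 CPM in the Aldafermin + MYC tumors and at 6.704, 13.7, 18.5, 14.6 and 21.2 CPM in the sgTrp53 + MYC tumors. Aldafermin + MYC replicate 3 stood above the rest (log2 fold change 1.63 ± 0.48, adjusted p = 0.0254), and without it the gene was not called (log2 fold change 0.92, adjusted p = 0.1404). Without that library 0 collagen genes and 2 transition genes were called higher. The 16 stellate cell and fibroblast markers summed to 252.2 to 1956.6 CPM in Aldafermin + MYC and 229.9 to 443.5 CPM in sgTrp53 + MYC tumors, with 2 called higher (Tagln and Acta2) and 0 after Aldafermin + MYC replicate 3 was left out. Of the exon length of Tagln 66.7% is shared with the other strand. The part of these cells in the matrix genes was not tested.

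Of 14 tested macrophage markers 7 were called higher in Aldafermin + MYC tumors and 0 lower. The higher count was 3 when the 10 compared libraries were fitted alone, and without the pair numbered 4 the Kupffer cell marker Clec4f was called lower (log2 fold change -2.84, adjusted p = 0.0393). Cd68 stood at 68.98, 68.5, 130.4, 76.2 and 51.1 CPM in the Aldafermin + MYC tumors and at 39.6, 30.6, 44.7, 30.3 and 37.9 CPM in the sgTrp53 + MYC tumors. This lysosomal macrophage protein was higher without overlap (log2 fold change 1.11 ± 0.20, adjusted p = 0.00127). C1qb, a complement subunit made by Kupffer cells, averaged 147 ± 71.5 CPM against 57.2 ± 15.5 CPM (log2 fold change 1.36 ± 0.26, adjusted p = 0.00168). The 14 markers summed to 603.1 to 1692.1 CPM against 323.3 to 664.1 CPM. Of 17 endothelial markers 2 were called higher, beside 10.2% of all tested genes, and these were Ramp2 (log2 fold change 1.45 ± 0.28, adjusted p = 0.00184) and Esam (log2 fold change 1.12 ± 0.25, adjusted p = 0.00425), with sums of 231.7 to 460.5 against 155.4 to 290.7 CPM. Without the pair numbered 4 the sinusoidal marker Clec4g was called lower (log2 fold change -4.10, adjusted p = 0.00462). Of 5 tested erythroid markers 3, all haemoglobin genes, were called higher, and 1 when the 10 compared libraries were fitted alone, with Aldafermin + MYC replicate 5 the highest. Hba-a2 stood at 16.1, 6.15, 18.1, 12.5 and 70.2 CPM against 3.77, 3.37, 1.65, 7.502 and 2.27 CPM (log2 fold change 2.73 ± 0.57, adjusted p = 0.00308), and at 1.78 on the log2 scale without that library. Of 5 T and NK cell, 1 B cell and 3 neutrophil markers that passed the filter, 0 were called by edgeR, 0 had an unadjusted p under 0.05 and DESeq2 called 0.

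Of 35 tested interferon-stimulated genes 2 were called higher and 2 lower, beside 10.2% and 7.53% of all tested genes. Bst2 stood at 198, 143, 244, 168 and 202 CPM in the Aldafermin + MYC tumors and at 86.1, 138, 110.2, 62.3 and 82.2 CPM in the sgTrp53 + MYC tumors. Tetherin, which retains virions at the cell surface, was higher (log2 fold change 1.00 ± 0.20, adjusted p = 0.00219). Stat2, of the interferon receptor complex, was lower (log2 fold change -0.80 ± 0.26, adjusted p = 0.0363), a call lost without Aldafermin + MYC replicate 1 or sgTrp53 + MYC replicate 3 or 5 (adjusted p up to 0.0938). Of 21 antigen presentation genes edgeR called 0, DESeq2 called 1 and 2 had an unadjusted p under 0.05. The macrophage markers above differed between the same tumors, and their part in these lists was not tested.

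Proliferation genes gave few calls. Of 24 tested mitosis genes edgeR called 0, DESeq2 called 3 and 3 had an unadjusted p under 0.05. Mki67 stood at 166, 180.2, 152, 176 and 74.4 CPM in the Aldafermin + MYC tumors and at 81.2, 154, 188, 199 and 186 CPM in the sgTrp53 + MYC tumors. The groups overlapped, with Aldafermin + MYC replicate 5 and sgTrp53 + MYC replicate 1 the lowest (log2 fold change -0.11 ± 0.31, adjusted p = 0.8399). Of 30 DNA replication genes 1 was called, Pola1, the catalytic subunit of primase-bound polymerase alpha, which was lower at 18.2 ± 3.94 CPM against 36.5 ± 6.099 CPM (log2 fold change -1.01 ± 0.19, adjusted p = 0.00137). Cdkn2c, the INK4 inhibitor p18, was lower without overlap, at 16.1 ± 5.999 CPM against 33.5 ± 3.41 CPM (log2 fold change -1.06 ± 0.22, adjusted p = 0.002504). Rbl2, the pocket protein p130, was lower (log2 fold change -0.80 ± 0.17, adjusted p = 0.00423), with 44.4% of its exon length shared with the other strand. Cdkn1c, the inhibitor p57, was called higher (log2 fold change 1.04 ± 0.30, adjusted p = 0.0241). The call was lost without Aldafermin + MYC replicate 1 or 5 or sgTrp53 + MYC replicate 2 or 3 (adjusted p up to 0.0751). It was also lost in the 10 compared libraries alone (adjusted p = 0.0729) and with the correction for GC content and length (0.0726). The same held with the replicate block (0.0514) and with no filter on low counts (0.0538). Cdkn2a, which encodes p16 and the p53 activator ARF, was at 80.9 CPM in sgTrp53 + MYC replicate 2 and at or under 2.13 CPM in the other 9 tumors, too few for a test.

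MYC, the oncogene shared by both groups, has ribosome production among its best known outputs. Mouse Myc averaged 3.601 ± 2.37 CPM against 3.06 ± 0.709 CPM (log2 fold change 0.23 ± 0.40, adjusted p = 0.731). Of 12 tested genes of MYC and its partners 0 were called higher and 2 lower, Mxd4, above, and Mxi1, an antagonist of MYC. The lower count ran from 1 to 5 when 1 library was left out, and DESeq2 called 5 lower. Mxi1 stood at 77.05, 69.2, 65.8, 67.7 and 67.2 CPM in the Aldafermin + MYC tumors and at 91.7, 110.4, 106, 114 and 107 CPM in the sgTrp53 + MYC tumors. Its groups were apart (log2 fold change -0.61 ± 0.11, adjusted p = 0.00104). Of 24 ribosome biogenesis genes 2 were called higher and 1 lower, with Fbl (log2 fold change 0.43 ± 0.12, adjusted p = 0.0183), Bop1 (log2 fold change 0.45 ± 0.12, adjusted p = 0.0187) and Wdr43 (log2 fold change -0.51 ± 0.15, adjusted p = 0.0272) each losing the call without at least 1 library (adjusted p up to 0.0586, 0.0546 and 0.0736). Of 74 cytosolic ribosomal protein genes edgeR called 0, DESeq2 called 1 and 1 had an unadjusted p under 0.05. With the correction for GC content and length, 1 was called higher and 4 lower.

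Several chaperone genes of the endoplasmic reticulum were called higher in Aldafermin + MYC tumors. Of 28 tested genes of ER stress and of ATF4, a factor of the stress response, 14 were called higher and 1 lower with a median log2 fold change of 0.64. Pdia6 stood at 440.4, 377, 446, 388 and 566 CPM in the Aldafermin + MYC tumors and at 236, 231, 207, 307 and 198 CPM in the sgTrp53 + MYC tumors. This disulfide isomerase was higher without overlap (log2 fold change 0.91 ± 0.15, adjusted p = 0.000644). The isomerase Pdia4 averaged 236 ± 23.8 CPM against 131 ± 18.1 CPM (log2 fold change 0.85 ± 0.14, adjusted p = 0.000511) and the chaperone calreticulin, Calr, 811 ± 112 CPM against 443 ± 73.9 CPM (log2 fold change 0.87 ± 0.16, adjusted p = 0.00137). Hspa5, the chaperone BiP, gave log2 fold change 0.84 ± 0.17, adjusted p = 0.00256. Sesn2, counted above among p53 targets, is also on this list. The count was 9 without sgTrp53 + MYC replicate 3, 9 when no filter on low counts was used and 7 when the 10 compared libraries were fitted alone.

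Of 29 tested genes of lipogenesis and cholesterol synthesis 8 were called higher and 1 lower, beside 10.2% and 7.53% of all tested genes. Dhcr7 stood at 189, 188, 185, 155 and 154 CPM in the Aldafermin + MYC tumors and at 69.3, 64.1, 71.6, 90.9 and 97.9 CPM in the sgTrp53 + MYC tumors. It encodes the enzyme of the last step, and the groups were apart (log2 fold change 1.14 ± 0.21, adjusted p = 0.00138). Fdps averaged 149 ± 18.8 CPM against 63.4 ± 14.8 CPM (log2 fold change 1.23 ± 0.25, adjusted p = 0.00241) and Mvk 34.7 ± 6.11 CPM against 15.6 ± 3.41 CPM (log2 fold change 1.15 ± 0.23, adjusted p = 0.00214), both of them enzymes of the mevalonate pathway. Me1, a source of NADPH for fatty acid synthesis, was the 1 lower gene (log2 fold change -1.57 ± 0.34, adjusted p = 0.00383). Of 26 glycolysis genes 3 were called higher and 1 lower. Ldha, lactate dehydrogenase A, averaged 2624 ± 545 CPM against 1508 ± 291 CPM (log2 fold change 0.80 ± 0.19, adjusted p = 0.00785), Aldoa, the non-hepatic aldolase, 913 ± 164 CPM against 604 ± 126 CPM (log2 fold change 0.60 ± 0.16, adjusted p = 0.0162), and Pfkm, the muscle phosphofructokinase, 8.64 ± 4.89 CPM against 24.8 ± 10.1 CPM (log2 fold change -1.52 ± 0.30, adjusted p = 0.002103).

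Of 39 tested cilium assembly genes 10 were called lower in Aldafermin + MYC tumors and 0 higher, beside 7.53% and 10.2% of all tested genes. Ift57 stood at 3.06, 0.868, 2.94, 1.5 and 1.21 CPM in the Aldafermin + MYC tumors and at 8.83, 7.304, 7.31, 4.62 and 4.73 CPM in the sgTrp53 + MYC tumors. This subunit of intraflagellar transport was lower without overlap (log2 fold change -1.77 ± 0.37, adjusted p = 0.00288). Ift74 stood at 9.93, 6.33, 4.43, 6.08 and 9.29 CPM in the Aldafermin + MYC tumors and at 18.9, 13.98, 12.1, 13.3 and 14.5 CPM in the sgTrp53 + MYC tumors. Its groups were apart as well (log2 fold change -1.01 ± 0.23, adjusted p = 0.00498). Wdr19, another transport subunit, averaged 2.501 ± 0.706 CPM against 6.04 ± 2.21 CPM (log2 fold change -1.27 ± 0.27, adjusted p = 0.00299). The listed cilium genes had a median GC content of 46.4%, against 49.3% over tested genes, and 8 were called lower with the correction for GC content and length. DESeq2 called 17, and the fit of the 10 compared libraries alone called 5. Of 17 circadian clock genes 2 were called lower, the transcription factors Tef (log2 fold change -0.92 ± 0.20, adjusted p = 0.00464) and Bhlhe41 (log2 fold change -2.78 ± 0.66, adjusted p = 0.00685).

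Of 16 tested targets of beta-catenin in hepatocytes edgeR called 0, DESeq2 called 0 and 3 had an unadjusted p under 0.05. Aldafermin + MYC replicate 4 decided this count, since without it 7 were called lower. Without the pair numbered 4 the 7 were Axin2 (log2 fold change -4.99, adjusted p = 0.0134), Tbx3 (log2 fold change -3.45, adjusted p = 0.0148), Cyp2e1 (log2 fold change -4.95, adjusted p = 0.0154), Slc1a2 (log2 fold change -4.35, adjusted p = 0.0184), Oat, Notum and Rnf43. These include the negative feedback genes of the pathway, Axin2 and Notum, and the pericentral enzyme Cyp2e1. The libraries numbered 4 were left out because they stood nearest to the other group, so these 7 calls are not independent support.

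**Figure D5:**
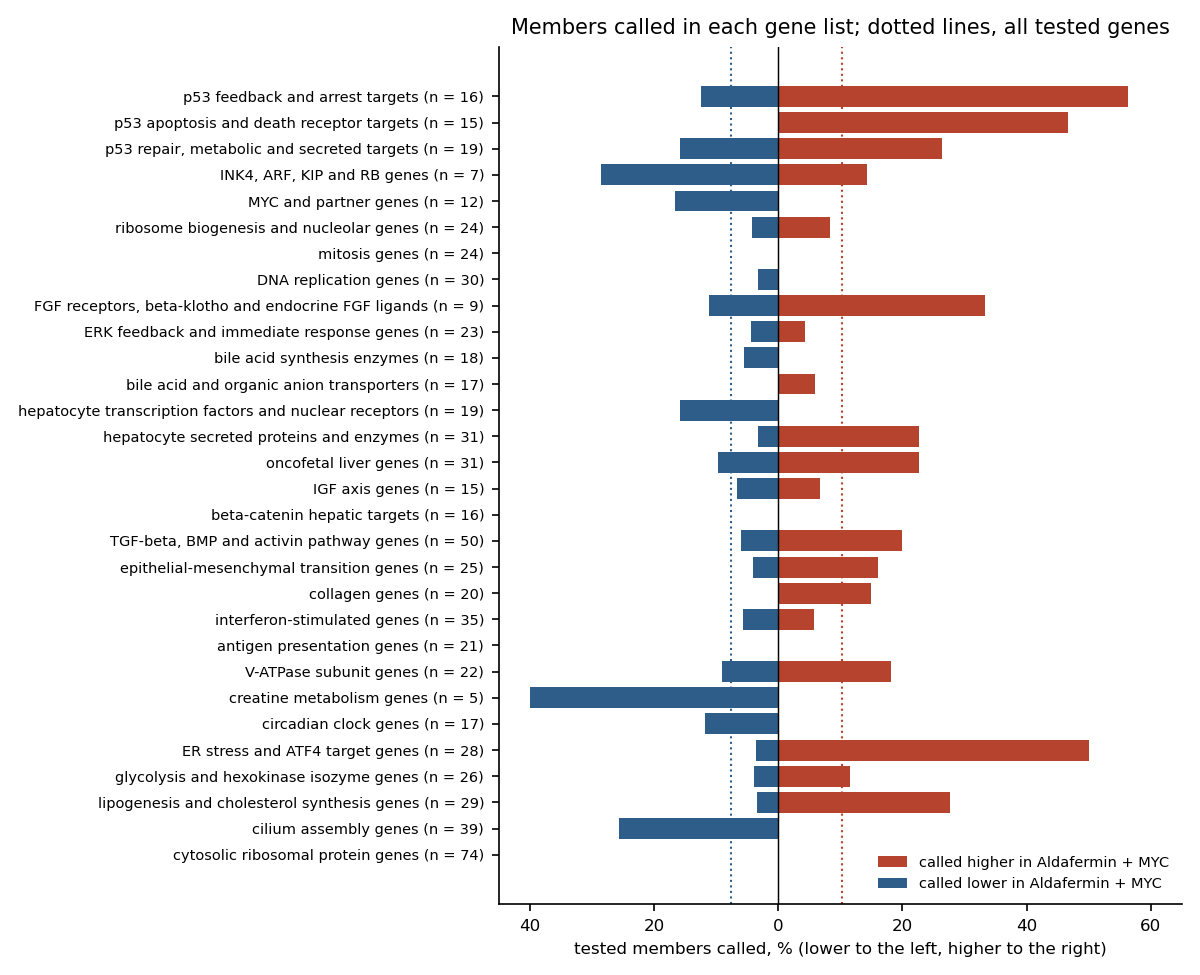
Share of the tested members of each gene list called higher (to the right) or lower (to the left) in Aldafermin + MYC tumors, in percent, from the edgeR fit. Dotted lines mark the shares over all tested genes, 10.2% higher and 7.53% lower. Lists of cell type markers are not drawn. The p53 feedback and ER stress lists extend furthest to the right, and the creatine list and that of INK4, ARF, KIP and RB genes furthest to the left.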

How the data were processed

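The data were RNA-seq counts of 20 individual liver samples from libraries made with the Illumina TruSeq Stranded mRNA kit. The authors demultiplexed reads with bcl2fastq 2.20.0.422, aligned them to mm39 with HISAT2 (version not given in the sources used here) and counted them per gene of the NCBI RefSeq annotation with htseq-count. The deposited values are raw read counts for 50559 genes in each of 2 tables, 1 with the Aldafermin + MYC, FGF19 + MYC and liver samples and 1 with the sgTrp53 + MYC samples, and 0 sample columns were left out. Each table ends in 5 summary lines, which were removed from library sizes and tests and used as read classes. In the 10 compared libraries gene counts summed to between 21604250 and 66354724, and the 2 most alike libraries of a group differed by 80.5 chi-square units per degree of freedom and were kept as separate samples.

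The 14333 genes that reached 1 CPM in 5 or more of the 20 libraries were fitted with edgeR 4.0.16 (limma 3.58.1, R 4.3.3) as 4 groups with TMM factors, and Aldafermin + MYC minus sgTrp53 + MYC was tested with the quasi-likelihood F test and Benjamini-Hochberg adjustment at 0.05 over all tested genes. Printed CPM use library totals multiplied by TMM factors. Fold changes are on the log2 scale as returned by the fit. A prior count of 2 was used for the log2 CPM behind the scale of library positions. Per the study's text each tumor came from a separate mouse, so replicates are biological. In simulated counts for this comparison on 14333 genes the test called 38 of 100 genes changed by 1 on the log2 scale and 78 of 100 changed by 2, with 5 false calls among the rest. Gene positions and overlaps were read from GENCODE M39 on GRCm39 by symbol, which matched 13847 tested genes (96.6%). The alternatives were DESeq2 1.42.0, edgeR's likelihood ratio test, RLE factors, library size alone, 2 other filters, the 10 compared libraries alone, a replicate block, predicted genes or overlapping genes left out, an offset for GC content and length, and each library left out.

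The members of the gene lists and the lists themselves were chosen with earlier results of these data known. 1 listed p53 target is not reported here and was left out of its list. Genes were named by rule: Trp53, the 8 largest called differences in each direction with at least 10 CPM in the higher group and no overlap, up to 3 called members of each list by smallest adjusted p (the member with the smallest p where none was called), and a fixed set of genes of p53, FGF19, MYC and hepatocyte function. Predicted genes, pseudogenes and Rik clones, recognised by symbol, could not enter the 8 largest differences. The other p53 targets, Apoa1, Hspa5, Me1, Igfbp2, Atp6v1b1, Krt7, Krt19, Hmga2, the imprinted genes and the further list members given by name were added after their values were seen.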

Additional observations from a re-analysis of the deposited data

Results flagged for a closer look

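A library lay apart from the other 4 of its group in 43 of the 274 groups of values checked. Chance alone gives about 1 in 20 only for normally spread values, which CPM need not be, so the excess over that rate is uncertain. Many of the genes were also named after their values were seen. No explanation was tested. The library with the most such values, 12, was sgTrp53 + MYC replicate 4, all on the side of the Aldafermin + MYC tumors. It held Sall4 at 7.94 CPM (the other 4 from 0.0659 to 1.18) and Hkdc1 at 19.3 CPM (the other 4 from 0.774 to 2.1). It also held Fgfr2 at 11.2 CPM (the other 4 from 0.522 to 2.47) and Nr0b2 at 27 CPM (the other 4 from 0.783 to 2.31). Then came Afp at 1270 CPM (the other 4 from 295 to 445) and Gpc3 at 397 CPM (the other 4 from 75.2 to 163). It read Nodal at 0.762 CPM (the other 4 from 0.0614 to 0.247) and Glipr2 at 52.1 CPM (the other 4 from 4.2 to 16.7). It further read Meg3 at 74.2 CPM (the other 4 from 0.659 to 14.2) and Mirg at 4.41 CPM (the other 4 from 0 to 1.26). It ended with Peg3 at 151 CPM (the other 4 from 0.7 to 16.7) and Usp29 at 2.49 CPM (the other 4 from 0 to 0.292). sgTrp53 + MYC replicate 2 had 9, with Bax at 79.5 CPM (the other 4 from 38.4 to 48.3) and Car7 at 7 CPM (the other 4 from 0.511 to 1.95). Further values there were Npnt at 33.3 CPM (the other 4 from 4.31 to 6.77) and Dusp6 at 82.3 CPM (the other 4 from 5.49 to 16.4). It also showed Spry4 at 25.7 CPM (the other 4 from 1.4 to 4.52) and Krt19 at 191 CPM (the other 4 from 0.0953 to 2.33). Next to these stood Hmga2 at 56.7 CPM (the other 4 from 0.0307 to 0.272) and Krt7 at 80.9 CPM (the other 4 from 0 to 0.265). The ninth was Cdkn2a at 80.9 CPM (the other 4 from 0.0921 to 0.79). Aldafermin + MYC replicate 4 had 5, with Cyp7a1 at 28.8 CPM (the other 4 from 0 to 0.174) and Baat at 24 CPM (the other 4 from 3.21 to 4.29). It also had Igfbp2 at 53 CPM (the other 4 from 7.62 to 15.5) and Krt7 at 0.577 CPM (the other 4 from 0 to 0.16). The last was Usp29 at 1.19 CPM (the other 4 from 6.1 to 7.69). Aldafermin + MYC replicate 3 had 5, with Trp53i11 at 52.7 CPM (the other 4 from 11.9 to 17.8) and Gdf15 at 47.4 CPM (the other 4 from 16.2 to 20). It also showed C1qb at 273 CPM (the other 4 from 104 to 126) and Cdkn2a at 2.13 CPM (the other 4 from 0.477 to 0.874). The last was Dlk1 at 1010 CPM (the other 4 from 619 to 678). Aldafermin + MYC replicate 5 had 5, with Sult2a1 at 3.42 CPM (the other 4 from 0 to 0.273) and Fry at 0.196 CPM (the other 4 from 0.777 to 1). Next were Fgf15 at 0.253 CPM (the other 4 from 0 to 0.0267) and Hba-a2 at 70.2 CPM (the other 4 from 6.15 to 18.1). Finally it had Mki67 at 74.4 CPM (the other 4 from 152 to 180). Aldafermin + MYC replicate 1 had 2, Ckm at 0.461 CPM (the other 4 from 0.0248 to 0.14) and Pfkm at 17.3 CPM (the other 4 from 5.64 to 7.52). sgTrp53 + MYC replicate 1 had 2, Rrm2b at 15.4 CPM (the other 4 from 9.79 to 11.2) and Ldb3 at 48.8 CPM (the other 4 from 0.735 to 11.2). sgTrp53 + MYC replicate 3 had 3, Plk2 at 7.95 CPM (the other 4 from 3.91 to 4.9) and Esam at 11.5 CPM (the other 4 from 5.81 to 7.4). The last was Myc at 4.3 CPM (the other 4 from 2.55 to 2.94).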

How the results depend on the processing

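Of 14333 tested genes 2534 were called, and 1076 were called (566 higher, 510 lower) when the 10 compared libraries were fitted alone, of which 1056 were among the 2534. In that fit 44 of the named genes lost their call, the most under any alternative, with 24 lost without Aldafermin + MYC replicate 3 next. With genes that overlap another gene left out, 592 of 3224 were called (333 higher, 259 lower), a smaller number because fewer genes were tested. DESeq2 called 1807 lower, and the fits that left out 1 library called 1786 to 3011 in all and 699 to 1431 lower, the lowest without Aldafermin + MYC replicate 3. The causes of the other shifts were not tested. Of p53 targets 12 were called higher in the 10 libraries alone and 6 with overlapping genes left out, against 21, and the called members of all lists numbered 74 and 33 against 150. The counts of 6 and 33 are also low because many list members were not among the 3224 genes tested. Of the named genes that were, 39 stayed on the same side of the threshold and 3 lost their call. The lower p53 targets numbered 2 without Aldafermin + MYC replicate 1 and 3 without Aldafermin + MYC replicates 2 or 3 or sgTrp53 + MYC replicates 3 or 4, against 5. Trp53 was called in all 21 alternatives that tested it, with log2 fold changes from 1.36 to 1.84, and the difference in unaligned reads kept its direction.

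With the replicate block 2267 genes were called, 1386 higher and 881 lower, and 16 of the named genes lost their call. Same-numbered libraries did not deviate together (correlations -0.2, -0.143, 0.295, -0.333 and -0.17), and only replicate 3 matched its own number best, so the numbers do not pair the tumors. Without the pair numbered 4, an alternative chosen after seeing the data, 2338 were called, 1262 higher and 1076 lower. Over the 160 named genes tested, the planned and added alternatives left 1618 values on the same side of the threshold, took 115 calls away and made 27, and leaving out 1 library left 1442, took 133 and made 18. No called value changed sign. Fold changes of some uncalled genes did, among them Dusp6 (-0.24 to 1.27), Spry4 (-0.38 to 1.5), Myc (-0.21 to 0.39), Mki67 (-0.28 to 0.07) and Bbc3 (-0.10 to 0.23). With 5 libraries a group, the simulated test missed most genes changed by 1 on the log2 scale, so a gene that was not called may still differ.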

Other observations

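A set of imprinted genes, picked after their values were seen, differed in level. Meg3, Rian and Mirg are noncoding RNAs of the maternal allele of the Dlk1-Dio3 region on chromosome 12, and Rtl1 is a paternal gene of that region. Rian stood at 222, 207, 241, 131 and 441 CPM in the Aldafermin + MYC tumors and at 1.38, 52.3, 12.7, 140.4 and 14.6 CPM in the sgTrp53 + MYC tumors. sgTrp53 + MYC replicate 4 overlapped the Aldafermin + MYC range and the other 4 did not (log2 fold change 2.49 ± 0.79, adjusted p = 0.0349), and the call was lost without Aldafermin + MYC replicate 3 or 5 or sgTrp53 + MYC replicate 2, 3 or 5 (adjusted p up to 0.083). Meg3 stood at 48.4, 140.5, 170.2, 54.9 and 90.4 CPM in the Aldafermin + MYC tumors and at 0.659, 14.2, 6.92, 74.2 and 7.54 CPM in the sgTrp53 + MYC tumors. sgTrp53 + MYC replicate 4 was again the highest of its group (log2 fold change 2.29 ± 0.72, adjusted p = 0.0333), and the call was lost without Aldafermin + MYC replicate 2 or 3 or sgTrp53 + MYC replicate 2, 3 or 5 (adjusted p up to 0.0818). Mirg was higher without overlap (log2 fold change 2.96 ± 0.74, adjusted p = 0.00993) in all 10 fits that left out 1 library. Rtl1 averaged 9.83 ± 6.79 CPM against 0.785 ± 1.23 CPM (log2 fold change 3.64 ± 1.08, adjusted p = 0.03103) and was not called without Aldafermin + MYC replicate 2 or 3 or sgTrp53 + MYC replicate 2 or 3 (adjusted p up to 0.0652). Dlk1, the paternal protein-coding gene of the region, was not called (log2 fold change 1.07 ± 0.76, adjusted p = 0.353). Dlk1 stood at 678, 647, 1014, 623 and 619 CPM in the Aldafermin + MYC tumors and at 3.94, 502, 412, 554 and 229 CPM in the sgTrp53 + MYC tumors. Only sgTrp53 + MYC replicate 1 was near 0 for this gene, and all 5 Aldafermin + MYC values were above all 5 sgTrp53 + MYC values.

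Peg3 and Usp29, paternally expressed neighbours on chromosome 7, showed the same tumor apart. Peg3 stood at 191, 249, 202, 72.4 and 164 CPM in the Aldafermin + MYC tumors and at 4.74, 0.7, 9.55, 151 and 16.7 CPM in the sgTrp53 + MYC tumors. The gene was not called with all tumors (log2 fold change 2.27 ± 0.85, adjusted p = 0.07102) and was without sgTrp53 + MYC replicate 4 (log2 fold change 4.47, adjusted p = 0.000254). Usp29 was called higher (log2 fold change 3.32 ± 0.99, adjusted p = 0.0261) except without sgTrp53 + MYC replicate 3 or 5 (adjusted p up to 0.0636). When the 10 compared libraries were fitted alone Meg3, Rian, Mirg, Rtl1 and Usp29 were not called (adjusted p from 0.0812 to 0.144). Gene counts do not show which allele was read.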
